A study of Homo sapiens with 9 samples.

Results

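The comparison described here sets melanoma cells given 0.25 nM of a miR-199a-3p mimic against cells given 0.5 nM of a control microRNA. Its members are 6 of the 9 arrays of the series, chosen by their titles: 3 of the 0.25 nM mimic and 3 of the control. The cells were WM266-4, an established line grown from a human melanoma metastasis, here in a form that carries GFP. Small RNAs were delivered with a cationic lipid reagent, and total RNA was taken after 48 h. The other 3 arrays, from cells given 0.5 nM of the mimic, entered the estimate of the spread and are quoted beside some results. No mimic was given to the control cells, and the 2 groups compared also differed in the amount of small RNA, 0.25 nM against 0.5 nM, so mimic and amount cannot be told apart. Replicates are biological triplicates of 1 cell line, per the labels.

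A microRNA is a short RNA that guides an Argonaute protein to messenger RNAs. It pairs mainly through its seed, the stretch from base 2 to base 8, and the paired messenger RNA is usually translated less and degraded faster. A mimic is a synthetic duplex that supplies the mature strand. miR-199a-3p is best known from mesenchymal and muscle cells and has been linked to receptor tyrosine kinases, to the growth kinase MTOR and, in melanoma, to the lipid carrier APOE.

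The strand supplied by the mimic is shown first, since it is what the treated cells received. Sequences are from RefSeq on GRCh38.p14, written 5′ to 3′ with the seed in capitals. The mature strand of miR-199a-3p has 22 bases and is encoded on chr1:172144554-172144575 and on chr19:10817429-10817450, both on the minus strand. miR-199b-3p, from chr9:128244745-128244766, differs at 0 positions and is therefore the same molecule. Among 2370 mature names in that table, 3 carry this seed, and the third is miR-3129-5p, which is shown because it shares the seed but not the rest. The opposite strand of the hairpin, miR-199a-5p, has another seed.
hsa-miR-199a-3p: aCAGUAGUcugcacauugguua
hsa-miR-199b-3p: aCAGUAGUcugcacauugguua
hsa-miR-3129-5p: gCAGUAGUguagagauugguuu
hsa-miR-199a-5p: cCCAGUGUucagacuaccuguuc
A messenger RNA that pairs with the whole seed of miR-199a-3p holds ACTACTG in its DNA letters. Transcript sequences were not used here, so which of the genes below hold such a match was not examined.

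Expression is given as log2 intensity after every array was shifted to the same median, so a difference of 1 is a doubling. The array annotation gave exactly 1 gene symbol to rows of 14812 genes, and 5593 of these had a mean level above 7 over the 9 arrays. Of 9 melanocytic markers looked for, 7 had a row, and all 7 lay above that level (MITF, PMEL, MLANA, TYR, TYRP1, SOX10 and S100B), with group means from 8.15 to 12.74 in control and from 8.38 to 12.76 at 0.25 nM. All 3 measured fibroblast markers, LUM, DCN and THY1, lay at or below level 7. Of the measured markers of other cells, KRT18, KDR and CD68 exceeded it. The melanocytic markers of the line were thus present in both groups.

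The error has to be read with care. The deposited median was 6.15 on each control array and 6.30 to 6.31 at 0.25 nM. Whether the groups were processed apart is not given in the sources used here, and a step done per group cannot be told apart from the treatment. Before the shift, the 3 control arrays held exactly equal values in 33.7% of genes above level 7, and the 3 arrays at 0.25 nM in 27.4% of those with 3 values. In replicate 3 at 0.25 nM the zeros directly after the decimal point were lost in the deposited column, so its values of under 10 digits were left out, and 19.8% of genes above level 7 rest on 2 values there. Across all 14812 genes 64.2% passed limma at an adjusted p of 0.05, 4486 higher (30.3%) and 5025 lower (33.9%), and above level 7 the ranges of the 2 groups did not overlap in 62.8% of genes. A gene is therefore called changed below only if it lay above level 7, passed limma, differed at least 1.3-fold and had groups whose ranges did not overlap. This rule was passed by 386 of 5593 genes (6.9%). As in any bulk sample, fewer cells of one state and less RNA per cell cannot be told apart.

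Under that rule 149 genes were higher at 0.25 nM (2.66% of those above level 7) and 237 were lower (4.24%). The called genes spanned -1.30 to -0.38 and 0.38 to 1.01 on the log2 scale, with medians of -0.47 and 0.46. Protein-coding genes made up 228 of the lower and 136 of the higher ones. The balance of directions depended on the scaling, for the largest differences too. Above level 7, 11 genes lay at least 0.9 below control and 1 lay as far above it. With no shift these numbers were 3 below and 6 above, and with quantile normalization over the 9 arrays 9 and 1. Relative to the median change above level 7 they were 9 below and 1 above, both here and with no shift. The shift adds 1 constant to each array, so this agreement follows by construction and is no check of the scaling. Among all calls, higher genes were 38.6% of calls here, 52.6% with quantile normalization, 58.1% with arrays shifted on genes above level 7 and 88.9% with no shift, where the median change above level 7 was 0.12 in place of -0.036.

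**Figure D1:**
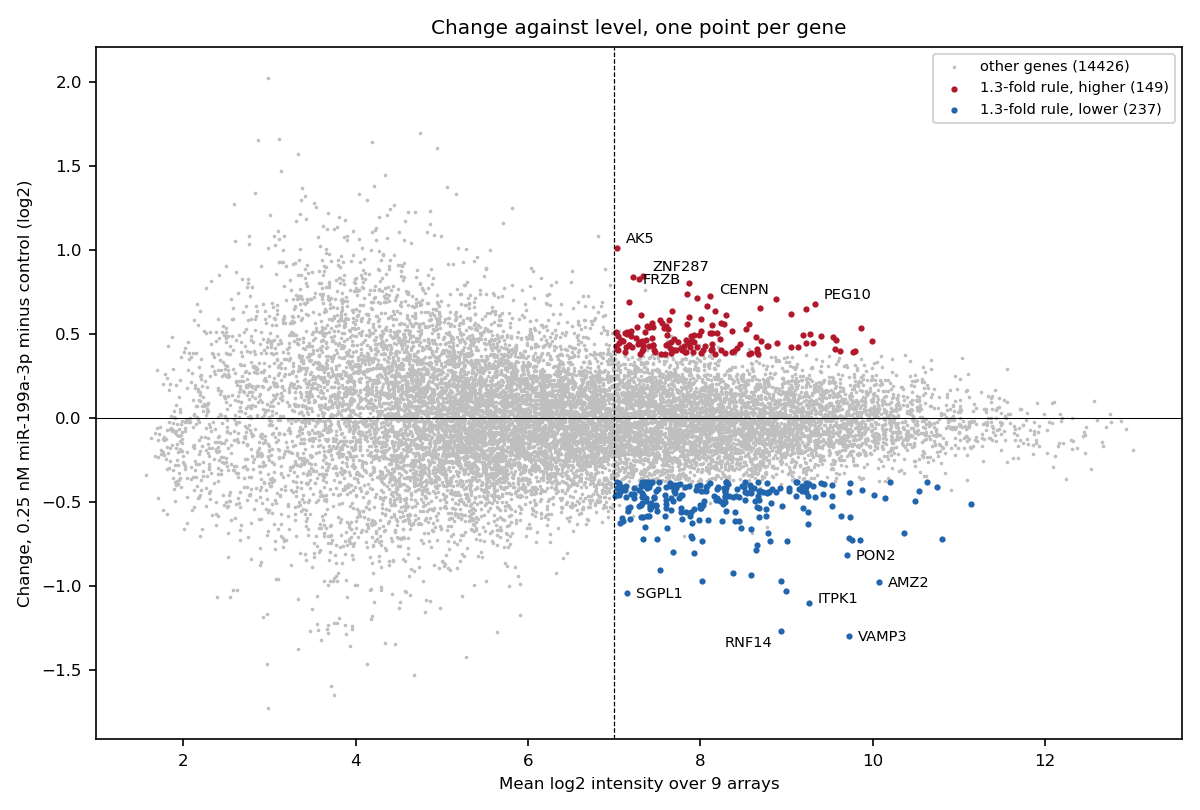
Change between 0.25 nM miR-199a-3p and control (log2, vertical) against mean log2 intensity over 9 arrays (horizontal), one point per gene; the dashed line marks level 7. Blue and red points are the 237 lower and 149 higher genes of the 1.3-fold rule, and the farthest points to the right of the line, VAMP3 and RNF14, lie below 0.

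VAMP3, a SNARE protein that carries recycling vesicles to their target membrane, fell most among genes above level 7. Its control arrays read 10.36, 10.36 and 10.34, and the 2 usable arrays at 0.25 nM read 9.12 and 8.995. The lowest control array lay above the highest treated one by more than the spread of either group. The change was -1.30 ± 0.12 (SE), or 2.46-fold lower (limma adjusted p = 1.20e-04). RNF14, a ubiquitin ligase of the RING type, read 9.74, 9.57 and 9.61 in control and 8.37, 8.41 and 8.35 at 0.25 nM. Its groups stood apart in the same way, with a change of -1.27 ± 0.051 (SE; limma adjusted p = 4.15e-07).

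Enzymes of inositol and sphingolipid metabolism followed. ITPK1, which phosphorylates inositol phosphates, read 9.83, 9.86 and 9.86 in control and 8.76, 8.74 and 8.74 at 0.25 nM, a fall of 2.14-fold. SGPL1, the lyase that breaks down sphingosine 1-phosphate, read 7.80, 7.88 and 7.88 in control against 6.82, 6.81 and 6.81. The treated arrays of SGPL1 lay under level 7, so it exceeded that level through its control arrays. In both genes the arrays of one group were nearly equal, so the SE of 0.011 for ITPK1 reflects ties and not the precision of the difference. SLC49A4, a lysosomal membrane transporter, went from 9.52, 9.57 and 9.57 to 8.54, 8.52 and 8.52. PON2, an intracellular paraoxonase, fell by 0.82 from a control value of 10.20 on all 3 arrays.

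DCP2, the enzyme that removes the 5′ cap of messenger RNAs and so acts in the decay pathway that microRNAs use, read 8.51 on each control array and 7.55, 7.53 and 7.53 at 0.25 nM. This is a change of -0.97 ± 0.051 (SE; limma adjusted p = 1.83e-06). The groups did not overlap, which was a condition for all genes chosen here by size of change. At 0.5 nM of the mimic the 3 arrays read 8.06, 8.06 and 7.86, between the other groups.

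L1CAM, an adhesion molecule of the immunoglobulin family, read 9.54, 9.43 and 9.43 in control and 8.59, 8.46 and 8.44 at 0.25 nM. CD2AP, an adaptor between membrane receptors and actin, read 9.17, 9.09 and 9.07 against 8.27, 8.13 and 8.13. Both genes were highest in replicate 1 of each group, and the differences between arrays of the same number were alike, from -0.98 to -0.95 for L1CAM and from -0.96 to -0.90 for CD2AP. AMZ2, a zinc metalloprotease, read 10.39, 10.66 and 10.60 in control and 9.41, 9.64 and 9.65 at 0.25 nM. Here replicate 1 was the lowest array of each group, and the differences by number were -0.97, -1.02 and -0.94.

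The other 6 of the 15 largest falls were CISD2, an iron-sulfur protein of the endoplasmic reticulum and outer mitochondrial membrane, GATD1, SPATA20, NICOL1, HSDL1, a relative of the hydroxysteroid dehydrogenases, and PON2, given above. CISD2, GATD1 and SPATA20 rested on 2 usable arrays at 0.25 nM. Over 17 settings the change ranged from -0.95 to -0.62 for CISD2 and from -0.94 to -0.68 for GATD1. SPATA20 is the least certain of the 6. Its usable arrays at 0.25 nM read 7.21 and 7.65 against 8.23 on every control array, and without replicate 1 of every group its change was -0.58 in place of -0.80. NICOL1 fell by 0.80 at 0.25 nM and lay 0.15 below control at 0.5 nM, which shares the control arrays.

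AK5, an adenylate kinase, rose most. It read 6.43 on each control array and 7.39, 7.47 and 7.47 at 0.25 nM, a 2.02-fold rise with no overlap (change 1.01 ± 0.019 SE; limma adjusted p = 8.33e-09). ZNF287, a zinc finger protein, rose by 0.84 and PLSCR4, a phospholipid scramblase, by 0.84. The control means of these 3 genes, and of CCDC80 and HMOX1 below, lay under level 7, so these genes exceeded it through their treated arrays and their place depends on where the level is set.

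Among secreted proteins, FRZB, a Wnt antagonist, read 7.47 on each control array and 8.26, 8.25 and 8.31 at 0.25 nM. CCDC80, a matrix protein, read 6.90, 6.95 and 6.95 against 7.49, 7.89 and 7.89, with replicate 1 the least changed. A2M, a broad protease inhibitor, rose by 0.66 on 2 usable arrays. That the groups of these 3 genes did not overlap follows from how they were chosen.

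Proteins of the endoplasmic reticulum and of cell division were also among the largest rises. KDELR3, a receptor that returns proteins to the endoplasmic reticulum, read 8.93 on each control array and 9.57, 9.58 and 9.58 at 0.25 nM. FKBP7, a prolyl isomerase of that compartment, rose by 0.64. CENPN, which binds the centromeric nucleosome, read 8.52, 8.59 and 8.52 in control and 9.21, 9.28 and 9.28 at 0.25 nM. These genes were chosen by size of change, so the groupings are a way of listing them and not a test of a theme.

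F2RL2, a protease-activated receptor, and HMOX1, which degrades haem, varied more within groups. F2RL2 read 7.54, 7.94 and 7.86 in control and 8.35, 8.62 and 8.55 at 0.25 nM. HMOX1 read 6.56, 6.85 and 6.89 against 7.29, 7.55 and 7.55. Replicate 1 was the lowest array in each group of both genes, and by array number HMOX1 differed by 0.72, 0.70 and 0.66. SP110, an interferon-inducible nuclear body protein, TIMM9, a chaperone of mitochondrial import, and PEG10, an imprinted gene derived from a retrotransposon, rose by 0.66, 0.74 and 0.68. PEG10 rested on 2 usable arrays at 0.25 nM, and its change ranged from 0.50 to 0.83 over 17 settings. HLA-F-AS1 completes the 15. It is an antisense RNA in a region with many near-identical copies, and its rows on the array rose by between 0.33 and 0.71, those of 3 rows being equal, so its amount is uncertain.

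**Figure D2:**
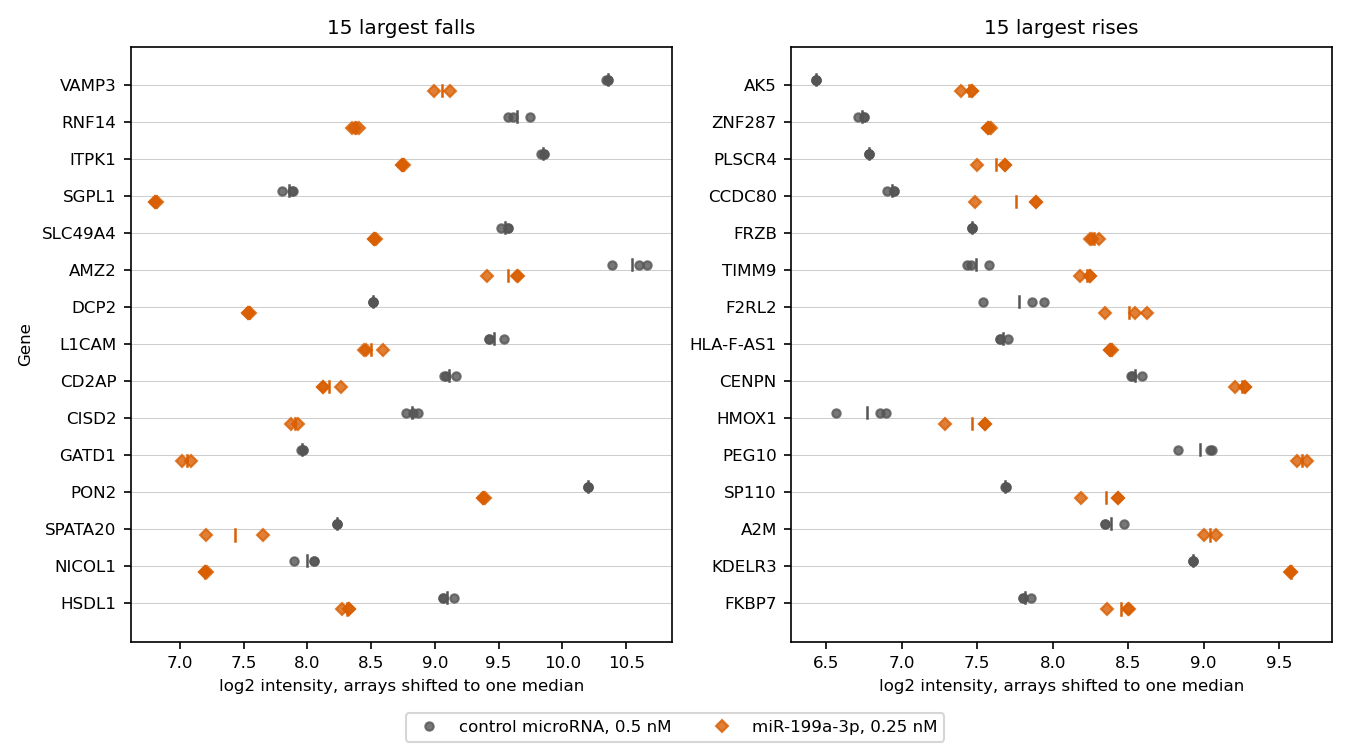
Log2 intensity (horizontal) of the 15 largest falls (left) and 15 largest rises (right) above level 7, one point per array, with a short line at each group mean. Grey circles are control arrays and orange diamonds are 0.25 nM arrays, and equal arrays are drawn on top of each other. Groups that do not overlap were a condition for choosing these genes.

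Chosen as large changes that passed limma, the 30 genes kept their limma calls in the alternatives fitted to single arrays. Their choice made this likely. When each group was instead counted as 1 unit and 0.25 nM was set against control and 0.5 nM together, 4 of them, VAMP3, AMZ2, ITPK1 and RNF14, passed limma and 26 did not. That setting has 1 unit in the 0.25 nM arm and takes its error from the difference between control and 0.5 nM, which holds an effect of the mimic, so no result is drawn from its p-values.

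The higher dose offers a second reading of the same mimic, against the same control arrays. For the 15 largest falls the median change was -0.97 at 0.25 nM and -0.62 at 0.5 nM. For the 15 largest rises the medians were 0.71 and 0.39. The genes were chosen for their size at 0.25 nM and the control is shared, so nothing about dose is read from these numbers. SGPL1 was alike at both, at -1.04 and -1.08, and ZNF287 lay higher at 0.5 nM, at 0.97.

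How far the change of a gene can differ between rows was seen in genes measured by several rows of the array. The dimmer row can lie far below the brightest, in SCD at 7.34 against 12.24, so level enters beside the summary of probes. Of 92 genes with 2 or more rows above level 7, 17 had brightest and next rows whose changes were equal to within 0.0001. In the remaining 75 the changes of the rows correlated at r = 0.472 across genes, and their difference had an SD of 0.23. The SD of the change over all genes above level 7 was 0.21. A change near the 1.3-fold limit is thus no larger than 2 times this SD, while those of VAMP3 and RNF14 are more than 5 times as large. VAMP3 and RNF14 were picked as the largest falls. Only 4 of the 92 genes were called. The rows of RPL23AP82 and SNAR-C1 were among the equal ones and add nothing, those of MIR486-1 changed by -0.48 and -0.51, and those of HLA-F-AS1 by 0.71 and 0.33. These 3 further genes are named because of the small count, after their values were seen. Genes are not independent replicates, and rows of a gene may share probes.

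The spread of the change fell with level. Its SD over genes was 0.48 between levels 3 and 4, 0.24 between 7 and 8 and 0.15 above 10. Between the 2 mimic doses it was 0.48, 0.21 and 0.14 in the same bins. In each of these bins the SD between 0.25 nM and control was thus close to that between the doses.

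**Figure D3:**
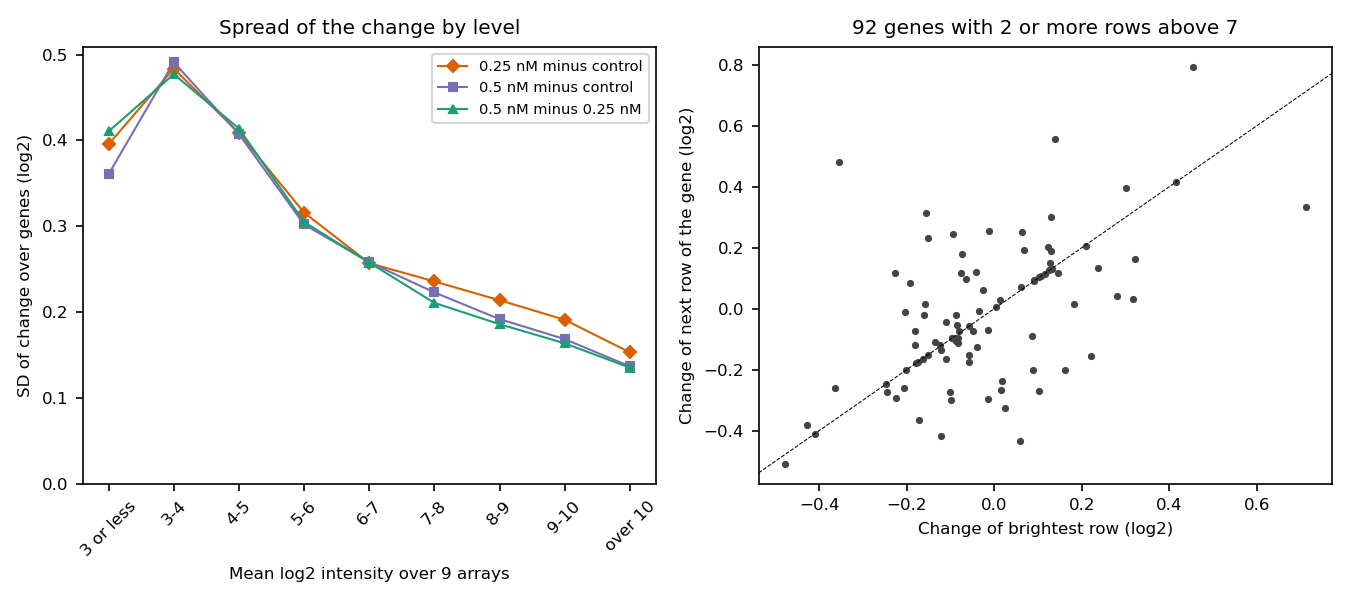
Left, SD over genes of 3 differences between groups (log2) in bins of mean log2 intensity; right, change of the brightest row against change of the next row for 92 genes with 2 or more rows above level 7, with the line of equality. The curve of 0.25 nM minus control runs from 0.24 to 0.15 above level 7, slightly over the other 2.

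Genes reported in the literature as targets of miR-199a-3p come next. The list, like all lists here, was chosen with earlier results of these data known, and is given by counts and medians. Of 23 genes, 18 had a row and 11 lay above level 7. Of these 11, 2 passed the 1.3-fold rule, both lower, and 6 passed limma as lower and 0 as higher, where 30.4% and 22.1% of all genes above level 7 did. Their median change was -0.33, against -0.036 for all 5593 genes above level 7, and stayed below 0 with no shift, at -0.17. The picture depends on the level set. Over all 18 targets with a row, 7 passed limma as lower and 4 as higher, where 33.9% and 30.3% of all 14812 genes did. The median change of the 18 was -0.12, against -0.020 for all 14812 genes.

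MAP3K11, a kinase upstream of JNK, read 7.98 on each control array and 7.33, 7.31 and 7.33 at 0.25 nM. It fell 1.57-fold with no overlap (change -0.66 ± 0.0084 SE; limma adjusted p = 1.57e-09). MTOR, the kinase that couples nutrients to growth, read 9.31 on each control array and 8.92, 8.90 and 8.90 at 0.25 nM. It fell 1.32-fold (limma adjusted p = 2.53e-06), while at 0.5 nM it read 9.38, 9.29 and 9.29, level with control. Both genes had equal control arrays, so the SE understates the error.

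MET, the receptor for hepatocyte growth factor, read 9.56, 8.85 and 8.88 in control and 8.82, 8.26 and 8.26 at 0.25 nM. Replicate 1 was high in each group, the lowest control array lay just above the highest treated one, and every array lay below the control array of its number, by 0.74, 0.59 and 0.62. MET did not pass limma (change -0.65 ± 0.31 SE; adjusted p = 0.104) but passed once replicate numbers were blocked (limma adjusted p = 0.00118) and without replicate 1 of every group (change -0.60; limma adjusted p = 0.0105). AXL, another receptor tyrosine kinase, read 8.75 on each control array and 8.53, 8.37 and 8.21 at 0.25 nM. It missed the threshold (limma adjusted p = 0.0548) and passed it when blocked (limma adjusted p = 0.0294), with the 6 arrays alone (0.0120) and without replicate 1 of every group (0.00713).

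The remaining reported targets above level 7 moved less than 1.3-fold. TAOK1, a kinase of the p38 and Hippo pathways, was lower by 0.33 with groups that did not overlap, at 9.83 on each control array and 9.47, 9.49 and 9.55 at 0.25 nM. HOMER1, a scaffold protein, lay at -0.35 on 2 usable arrays at 0.25 nM, and APOE lay at -0.21. HOMER1 and APOE both lost their limma call with no shift (limma adjusted p = 0.0545 and 0.372). YAP1, the effector of the Hippo pathway, lay at -0.10, lost its limma call with arrays shifted on genes above level 7 (limma adjusted p = 0.158) and turned to 0.06 with no shift. CD44 lay at 0.04, ETS2 at 0.08 and fibronectin, FN1, at -0.14. None of these 3 passed limma (adjusted p = 0.547, 0.178 and 0.240), though FN1 did when blocked (limma adjusted p = 0.00431). With no shift CD44 and ETS2 passed as higher (limma adjusted p = 0.0209 and 0.00594), and ETS2 also with quantile normalization (limma adjusted p = 0.0261).

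**Figure D4:**
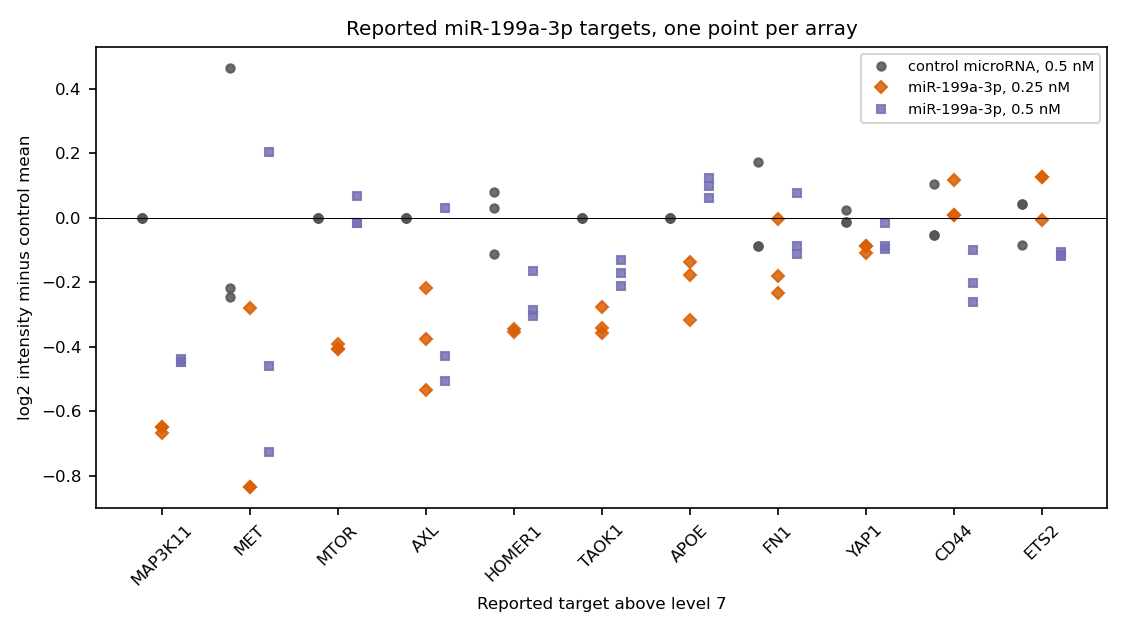
Log2 intensity minus the control mean (vertical) for the 11 reported miR-199a-3p targets above level 7, one point per array. Grey circles are control, orange diamonds 0.25 nM and violet squares 0.5 nM; MAP3K11 is lower on all 3 arrays at 0.25 nM, and MET shows 1 array per group, replicate 1, above the other 2.

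Among genes through which microRNAs are made and act, 13 of 25 had a row with exactly 1 symbol and 12 lay above level 7. AGO1, AGO2, AGO3, AGO4, DICER1, DROSHA and the CNOT genes of the list had no such row and were not covered. Of the 12, DCP2 was the only one past the 1.3-fold rule. By limma 4 were higher, among them TNRC6A at 0.24 and TNRC6C at 0.21, scaffolds of the silencing complex, and 3 were lower, DCP2 with XPO5, the exporter of microRNA precursors (-0.21), and TNRC6B (-0.15). Of all genes above level 7, 22.1% were higher and 30.4% lower by limma, so counts of 4 and 3 of 12 lay near the background. The list median was -0.039, close to that of all genes above level 7, and turned to 0.12 with no shift.

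Vesicle fusion genes went both ways. Of 23 SNARE and associated genes above level 7, VAMP3 and STX2, a plasma membrane syntaxin (-0.40), fell and VAMP4 (0.40) and STX18 (0.38), of the trans-Golgi network and the endoplasmic reticulum respectively, rose. STX2 and VAMP4 each rested on 2 arrays at 0.25 nM. VAMP4 did not pass limma when zeros were put back into replicate 3 (change 0.17; limma adjusted p = 0.442). The list median was 0.053. Of 16 genes of sphingolipid and inositol metabolism, ITPK1 and SGPL1 fell and PPIP5K2, an inositol pyrophosphate kinase, rose by 0.42. At 0.5 nM PPIP5K2 lay at -0.052.

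In the lysosome and autophagy list MCOLN1, the calcium channel of lysosomes, fell from 8.58, 8.84 and 8.84 to 8.06, 8.18 and 8.19, and was the only member of 19 past the rule. CD68, a lysosomal glycoprotein used above as an immune marker, fell from 10.03, 9.91 and 9.91 to 9.46, 9.32 and 9.32. It was the only immune marker above level 7.

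Signalling lists held single falls among members that mostly moved little. Of 13 genes of the MAP kinase cascade, MAP3K11 and HRAS (-0.49) were called. Of 11 genes of the pathway's output, ETV5, an ETS factor, was called at -0.44, while DUSP6, a phosphatase induced by ERK, passed limma as higher at 0.26. MTOR was the only one of 10 genes of mTOR and PI3K signalling past the rule, and TSC2, its upstream inhibitor, passed limma at -0.33. JUN had the farthest value of the 8 undifferentiated melanoma genes, -0.70, and passed limma, but its control arrays spread widely and overlapped those at 0.25 nM, so it was not called.

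Genes of lineage, growth and survival showed few calls. Of 12 melanocytic genes ERBB3, a receptor tyrosine kinase, fell by 0.39, and PMEL, a melanosome protein, passed limma at -0.29 and MLANA at 0.23. Of 23 mitosis genes PRC1, which bundles spindle microtubules, fell by 0.43, and of 22 DNA replication genes 0 passed the rule. BCL2L1, which encodes an inhibitor of apoptosis, fell by 0.51 on 2 usable arrays that read 7.20 and 7.51. The other 10 apoptosis regulators above level 7 were not called, and the list median was 0.15, or 0.095 without replicate 1 of the control.

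Cholesterol synthesis and uptake had a median of 0.15 over 13 genes above level 7, and 0.18 above the median of all genes at that level. Without replicate 1 of the control the median was 0.083. None of the 13 passed the rule. By limma 6 were higher and 0 lower, against 22.1% and 30.4% of all genes above level 7, with MSMO1 and INSIG1 at 0.35, STARD4 and FDPS at 0.30. The rule used only the brightest row of a gene. A dimmer row of FDPS, at level 7.19, changed by 0.40, which is past the 1.3-fold limit. Cytosolic ribosomal proteins, with a median of -0.15 over 17 genes that turned to 0.0040 with no shift, had 1 higher and 7 lower by limma, against the same 22.1% and 30.4%. RPS24 alone passed the rule, at -0.40, with its 2 usable arrays at 0.25 nM under level 7. Of 10 respiratory chain genes COX7B, a subunit of cytochrome oxidase, fell by 0.47 and lay at 0.0048 at 0.5 nM, and the median was -0.13, or 0.021 with no shift. Of the 40 genes listed 12 had a row, all of respiratory complexes III and IV, so complexes I and II and ATP synthase were not covered.

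Of the 10 interferon genes above level 7, 2 passed the rule, in opposite directions. RIGI, a cytosolic sensor of foreign RNA, fell by 0.41 on 2 usable arrays at 0.25 nM. XAF1, an interferon-induced gene, rose from 7.22 on each control array to 7.67, 7.66 and 7.77. IFIH1 and EIF2AK2, which also sense foreign RNA, passed limma at 0.37 and 0.19 and not the rule. In the stress lists MANF, secreted under stress of the endoplasmic reticulum, fell by 0.46, to a mean of 6.97 that lies under level 7. At 0.5 nM, which shares the control arrays, MANF lay 0.17 above control. ADM, a vasodilator peptide induced by low oxygen, fell by 0.41. None of the 9 p53 targets, 6 integrin and matrix genes and 2 NF-kB targets above level 7 passed the rule. CCDC80 was the only 1 of 5 YAP and TAZ targets that did. In the integrin and matrix list 7 of 32 genes had a row, and no integrin, collagen or laminin was among them. In the NF-kB list 11 of 20 had a row.

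**Figure D5:**
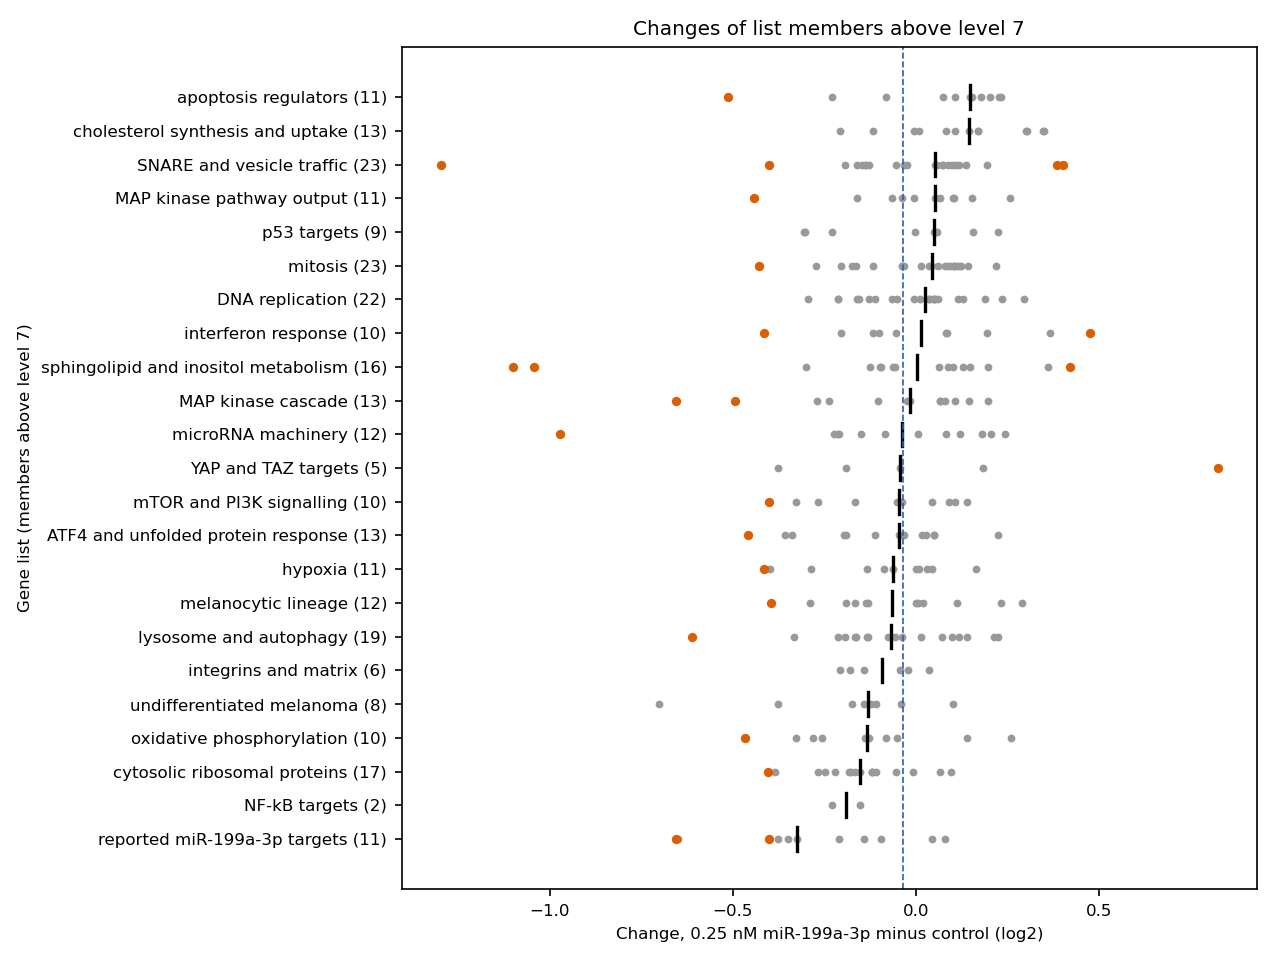
Change between 0.25 nM miR-199a-3p and control (log2, horizontal) of the members above level 7 of each gene list with at least 2 of them, whose number is in brackets. Orange points passed the 1.3-fold rule, grey points did not, black bars are list medians and the dashed line is the median of all genes above level 7, -0.036.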

How the data were processed

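Deposited values are log2 intensities from biotin-labelled total RNA (Genechip WT PLUS). Per the submitters' processing notes they were made with oligo, affy and RMA. Their versions, order and the genome build: not given in the sources used here. Array values alone limit the precision: there are 3 arrays per group.

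Of 44629 rows, 15835 had exactly 1 symbol, and all their gene IDs matched the RefSeq gene table. The brightest row per gene over 9 arrays was kept (14812 genes), values of under 10 digits in replicate 3 at 0.25 nM were left out, and arrays were shifted to one median over genes with a value on all arrays. limma 3.58.1 in R 4.3.3 was fitted to all 9 arrays with a mean per group, and p-values (two-sided) were adjusted by Benjamini-Hochberg across 14812 genes. The script was tested on simulated data without ties within groups, so that test does not bear on the effect of ties. Because the deposited values tie within groups, p-values measure only the spread between these arrays and come out too small. A search for seed matches in transcripts was planned and not run.

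Named are the 15 largest rises and falls above level 7 among genes passing limma with groups that do not overlap, up to 4 members per list past the 1.3-fold rule, and reported targets above level 7; other members and genes were chosen after their values were seen. Members and lists were chosen with earlier results of these data known. Arrays of the same number deviated together in control and 0.25 nM (r = 0.745, 0.678 and 0.558 over 4488 genes), but replicates 2 and 3 also resembled each other (r = 0.632 and 0.631), with replicate 1 apart.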

Additional observations from a re-analysis of the deposited data

Results flagged for a closer look

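Rows of the array that were not given exactly 1 gene symbol, so those with no symbol or with several, were outside the comparison of genes. Above level 7 there were 3809 of them, and 273 (7.17%) passed the same 1.3-fold rule at 0.25 nM against control, 89 higher and 184 lower. The share among the genes compared was 6.9%.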

How the results depend on the processing

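Precision is limited by 3 arrays per group, by exact ties within groups and by the unstated steps before deposit. With no shift limma called 7517 genes higher and 2529 lower, and the 1.3-fold rule 545 and 68. With only genes above level 7 tested limma called 1166 higher and 1644 lower, fewer genes being tested. With each group as 1 unit and 0.25 nM apart it called 5 and 8 genes, and the rule 2 and 5; by construction this setting has 1 unit in the 0.25 nM arm and its error holds the difference between control and 0.5 nM. A level of 6 gave 281 higher and 427 lower genes, a level of 8 gave 59 and 128, and a fold of 1.5 gave 21 and 49, as fewer or more genes qualify. The change of YAP1 turned to 0.0616 with no shift. Under the replicate block limma called 4639 higher and 5343 lower genes and the rule 151 and 245, keeping 383 of 386 genes; among named genes the block changed only the calls of MET, AXL and FN1. The other settings left each count within 1.5 times its value: quantile normalization (203 higher and 183 lower by the rule), values as deposited, zeros put back (200 and 193, which also alters values that end in 0), 6 arrays only, an intensity trend, the mean of a gene's rows, each array left out in turn, and, chosen after seeing the data, replicate 1 left out of every group. A shift on genes above level 7, also chosen then, gave 229 higher and 165 lower genes. With no shift 217 of the 386 genes remained called, and with quantile normalization 332.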
